A study of Saccharomyces cerevisiae with 10 samples.

Results

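The 26S proteasome degrades proteins that carry ubiquitin, including those marked by the SCF ubiquitin ligase. Expression of 32 genes for its subunits and of RPN4, the transcription factor gene that activates them, was followed in 5 temperature-sensitive yeast strains. These 33 genes were chosen by name, as genes of the complex or its activator, and each was measured by 1 probe set, out of 5449 genes on the arrays. They fall into the alpha ring (7 genes) and beta ring (7 genes) of the 20S core, the ATPases (6 genes), the non-ATPase base (4 genes) and the lid (8 genes) of the 19S regulatory particle, and RPN4.

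The 20S core is a barrel of stacked rings whose beta subunits Pre3, Pup1 and Pre2 cut peptide bonds inside it. The 19S particle binds ubiquitin chains, removes them, and uses its ATPase ring to unfold substrates and feed them into the core. Rpn4 binds a common promoter element of the subunit genes, and is itself a short-lived substrate of the proteasome, so that its level rises when degradation is impaired. The shared element lets the subunit genes be transcribed together in budding yeast, and the turnover of Rpn4 adjusts their amount.

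Each strain carried 1 temperature-sensitive allele of the SCF, and was measured on 1 array after 1 h at 35 °C and 1 array at room temperature (25 °C). The alleles were cdc53-1 of the cullin scaffold (strain py175), cdc34-3 of the ubiquitin-conjugating enzyme (py24), cdc4-3 of an F-box protein (py187), and skp1-11 (W303) and skp1-25 (py1374) of the adaptor Skp1. All 10 cultures grew in YPDA, a rich glucose medium. Every strain carried a mutant SCF, and a wild-type strain was not analysed here, so warming and loss of SCF function cannot be told apart. The labels do not say that cultures were repeated, so the 5 strains are the replicates of the temperature shift, and p-values measure the spread between strains. Values are log2 levels, and where 5 values are listed they follow the order cdc53-1, cdc34-3, cdc4-3, skp1-11, skp1-25.

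The strains differ in more than the allele. STE2, the alpha-factor receptor gene of mating type a, stood at 6.41 at 35 °C and 7.39 at room temperature in cdc53-1, against 12.15 to 13.24 on the other 8 arrays. The part of such background differences in the values below was not tested. Array medians over all probe sets lay between 10.96 and 11.14.

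No proteasome gene passed the test between the temperatures. At an adjusted p under 0.05 limma called 0 of the 33 genes, where 17.6% of all genes were called (13.0% higher and 4.61% lower at 35 °C). At an unadjusted p under 0.05 there were 2, RPT5 and RPN3, against 34.2% of all genes. The mean difference (35 °C minus room temperature) was above 0 for 10 of the 33 and below 0 for 23, with a median of -0.04. Of all 5449 genes 3228 lay above 0 and 2221 below, with a median of 0.05. Without cdc53-1 the counts of the 33 were 17 and 16, and without skp1-11 they were 5 and 28. The means ran from -0.24 for RPT5 to 0.13 for PRE3. The 95% intervals of the 33 means lay between -0.42 and 0.30 on the log2 scale, which is between 0.748-fold and 1.23-fold. After each array was centred on its median, the median of all genes was -0.03 and 30 of 33 means were below 0. RPT5 and RPN3 were then called lower, 2 of the 33 genes, where 503 of all 5449 genes were. After quantile normalization the median of all genes was also -0.03, and again 30 of 33 means were below 0. PUP1, RPT5 and RPN3 were then called lower, 3 of the 33 genes, where 530 of all 5449 genes were. The share of all genes with a mean below 0 is not given here for either scaling.

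**Figure D1:**
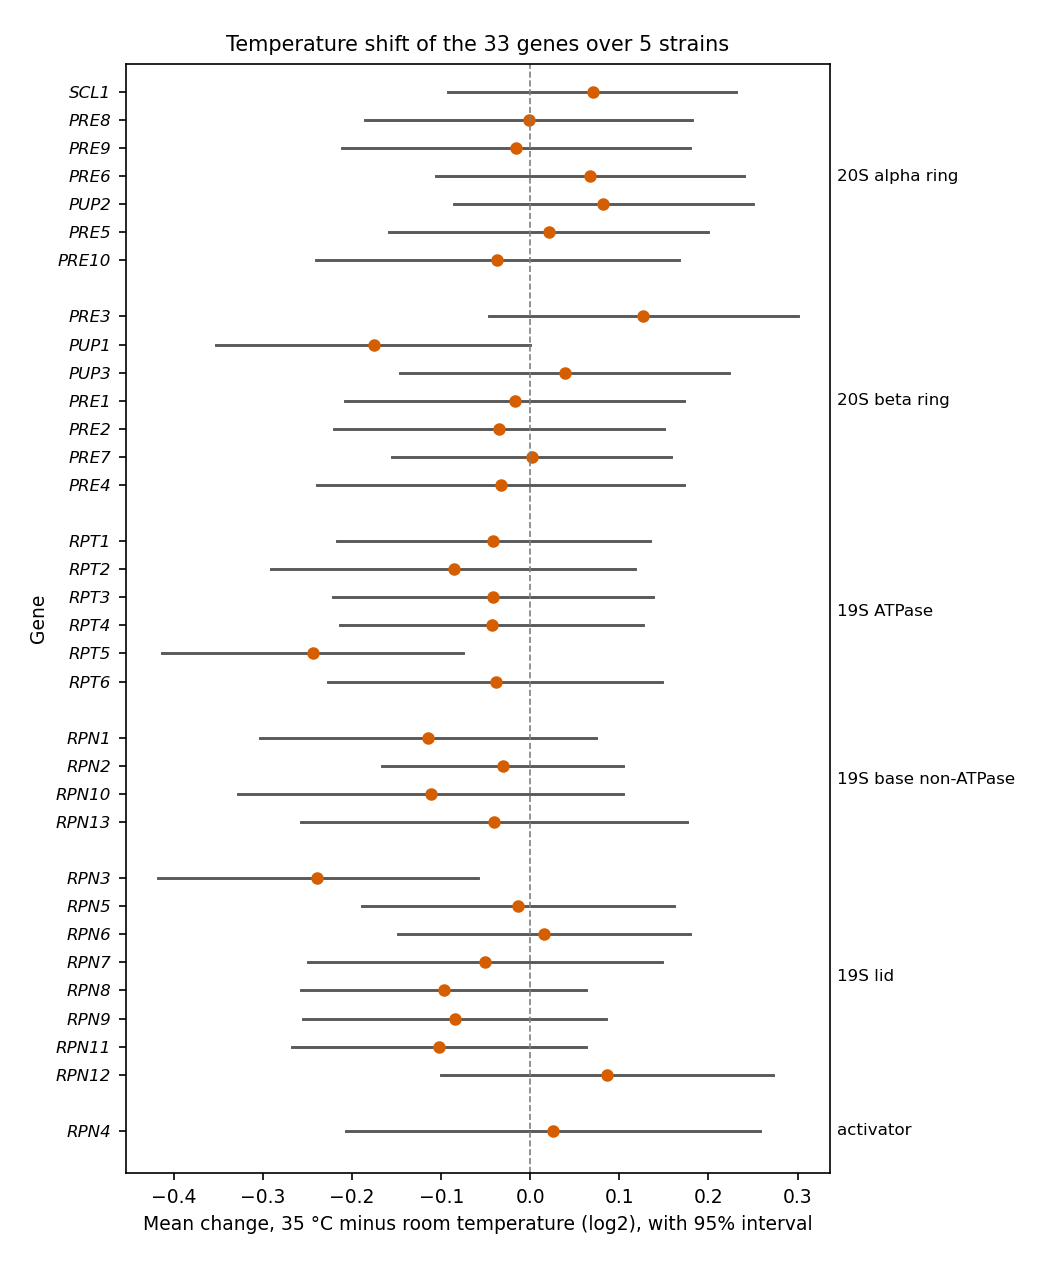
Mean change of each of the 33 genes (points; log2, 35 °C minus room temperature) over 5 strains, with the 95% interval of the fit (lines), grouped by subcomplex down the page. The intervals of RPT5 and RPN3 lie below 0, and neither gene passed the adjusted threshold.

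RPN4 (YDL020C) encodes the activator of the other 32 genes. The arrays read RNA, so the amount of Rpn4 protein was not measured. Its level was 11.75, 11.25, 11.83, 11.52 and 11.42 at 35 °C, against 11.55, 11.30, 11.76, 11.27 and 11.75 at room temperature. The levels at the 2 temperatures overlapped, and the mean difference was 0.03 ± 0.23 (SD, n = 5 strains; adjusted p = 0.881). Its direction turned with the scaling, to -0.05 after median centring and after quantile normalization. Among strains, changes of RPN4 were 0.20, -0.06, 0.07, 0.25 and -0.33, so skp1-25 had the lowest value and skp1-11 the highest. RPN4 varied more between strains than any subunit gene. Its SD over strains was 0.24 at 35 °C and 0.24 at room temperature. The largest SD of a subunit gene was 0.19 (PRE4) at 35 °C and 0.10 (RPT2) at room temperature. Over all genes the median SD was 0.23 at 35 °C and 0.16 at room temperature. RPN4 thus lay near that median at 35 °C and above it at room temperature. Every subunit gene lay below it at both temperatures. RPN4 had a lower mean level (11.54) than any subunit gene. Over the 1914 genes at or above that level, the median SDs were 0.17 and 0.12. At 35 °C the order of the RPN4 levels was cdc34-3, skp1-25, skp1-11, cdc53-1 and cdc4-3 from lowest to highest. At room temperature, cdc53-1 (11.55), cdc4-3 (11.76) and skp1-25 (11.75) stood above cdc34-3 (11.30) and skp1-11 (11.27).

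The genes of the alpha ring, whose subunits gate the core, had a median difference of 0.02, with 4 of 7 means above 0 and 3 below, and medians of -0.05 after median centring and -0.06 after quantile normalization. No member passed the test. SCL1 encodes an essential alpha subunit and stood at 12.73, 12.77, 12.93, 13.05 and 12.78 at 35 °C, against 12.77, 12.76, 12.81, 12.80 and 12.78 at room temperature. Room temperature levels of SCL1 lay between 12.76 and 12.81, and the 35 °C arrays of cdc4-3 and skp1-11 lay above them all. Its mean difference was 0.07 ± 0.12 (SD, n = 5 strains; adjusted p = 0.504), or -0.01 after median centring and after quantile normalization. PUP2, another alpha subunit gene, stood at 12.69, 12.70, 12.87, 12.84 and 12.60 at 35 °C, against 12.71, 12.71, 12.63, 12.63 and 12.61 at room temperature. For PUP2 too, cdc4-3 and skp1-11 held the highest arrays, and the mean difference was 0.08 ± 0.13 (SD, n = 5 strains; adjusted p = 0.446). The PUP2 mean was 0.008 after median centring and 0.003 after quantile normalization. PRE10 had the widest range of changes in this ring. It stood at 12.80, 12.63, 12.89, 12.99 and 12.74 at 35 °C, against 12.88, 12.87, 12.80, 12.77 and 12.92 at room temperature. At 35 °C cdc4-3 and skp1-11 were the highest and cdc34-3 the lowest, and its mean difference was -0.04 ± 0.19 (SD, n = 5 strains; adjusted p = 0.8). PRE9, the only alpha subunit gene that yeast can lose and live, had a mean difference of -0.02, and PRE8, PRE6 and PRE5 lay between -0.002 and 0.07.

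The beta ring carries the proteolytic sites. Its median difference was -0.02, with 3 of 7 means above 0 and 4 below, and no member passed the test on the deposited values. The median was -0.091 after median centring and -0.097 after quantile normalization. PRE3, which encodes the subunit with caspase-like activity, had the highest mean of the 33 genes. It stood at 12.69, 12.83, 13.02, 12.94 and 12.67 at 35 °C, against 12.71, 12.77, 12.74, 12.66 and 12.62 at room temperature. The change was above 0 in 4 of 5 strains and the groups overlapped, with a mean of 0.13 ± 0.14 (SD, n = 5 strains; adjusted p = 0.257). PUP1, which encodes the subunit with trypsin-like activity, stood at 12.22, 12.09, 12.27, 12.49 and 12.36 at 35 °C, against 12.43, 12.43, 12.49, 12.42 and 12.54 at room temperature. In PUP1 the change was below 0 in 4 of 5 strains, with skp1-11 the exception, and the mean was -0.18 ± 0.15 (SD, n = 5 strains; adjusted p = 0.146). PRE3 and PUP1, which both encode active subunits, thus had means on opposite sides of 0. The difference between them was not tested. After median centring the means of PRE3 and PUP1 were 0.05 and -0.25. After quantile normalization they were 0.04 and -0.25, and there PUP1 was called lower (adjusted p = 0.0473). PRE4, a beta subunit gene without an active site of its own, had the widest range of changes in the ring. It stood at 12.64, 12.66, 13.00, 13.02 and 12.70 at 35 °C, against 12.86, 12.74, 12.88, 12.81 and 12.90 at room temperature. The 35 °C arrays of cdc4-3 and skp1-11 were the highest of the 10 and those of the other 3 strains the lowest, and the mean was -0.03 ± 0.19 (SD, n = 5 strains; adjusted p = 0.821). PRE2, the gene for the chymotrypsin-like subunit, had a mean of -0.04, and PUP3, PRE1 and PRE7 had means of 0.04, -0.02 and 0.002.

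All 6 ATPase genes had a mean difference below 0, where 2221 of all 5449 genes did. Their median was -0.04, and no member passed the test on the deposited values. The median was -0.117 after median centring and -0.125 after quantile normalization. RPT5, which encodes an ATPase whose tail docks into the alpha ring, had the lowest mean of the 33 genes. It stood at 12.01, 11.92, 12.03, 12.25 and 11.94 at 35 °C, against 12.27, 12.25, 12.33, 12.26 and 12.27 at room temperature. Only the skp1-11 array at 35 °C reached into the room temperature range, and the change was below 0 in 5 of 5 strains. The mean of RPT5 was -0.24 ± 0.13 (SD, n = 5 strains; adjusted p = 0.0577), with a 95% interval of -0.41 to -0.08. It passed the threshold after median centring (adjusted p = 0.0225), after quantile normalization (0.0184), with low genes left out (0.0452) and without skp1-11 (0.0471). RPT5 did not pass without the strain block (0.0788), with averaged probe sets, or with any other strain left out (adjusted p up to 0.156). RPT2, another ATPase gene that acts in opening the core, stood at 12.35, 12.28, 12.40, 12.53 and 12.37 at 35 °C, against 12.55, 12.57, 12.40, 12.33 and 12.50 at room temperature. In RPT2 the skp1-11 change of 0.20 stood against values from -0.29 to -0.004 elsewhere, and the mean was -0.09 ± 0.19 (SD, n = 5 strains; adjusted p = 0.515). RPT1, RPT3, RPT4 and RPT6 had means that all lay at -0.04.

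The non-ATPase base holds the scaffold subunits Rpn1 and Rpn2 and the ubiquitin receptors Rpn10 and Rpn13. All 4 genes had a mean below 0, where 2221 of all 5449 genes did. Their median was -0.08, and no member passed the test. The median was -0.151 after median centring and -0.155 after quantile normalization. RPN1, whose product also docks the shuttle proteins that bring ubiquitinated substrates, stood at 12.68, 12.76, 12.84, 13.14 and 12.74 at 35 °C, against 12.92, 12.93, 12.89, 13.00 and 13.00 at room temperature. At 35 °C the skp1-11 array was the highest of all 10 and the other 4 arrays were below every room temperature array, with a mean difference of -0.12 ± 0.17 (SD, n = 5 strains; adjusted p = 0.341). RPN10 had the widest range of changes of the 33 genes. It stood at 12.01, 12.33, 12.22, 12.49 and 12.31 at 35 °C, against 12.43, 12.44, 12.29, 12.32 and 12.44 at room temperature. Its cdc53-1 array at 35 °C was the lowest of the 10, at 12.01, and its skp1-11 array at 35 °C the highest, at 12.49. The mean of RPN10 was -0.11 ± 0.21 (SD, n = 5 strains; adjusted p = 0.419). RPN13 had a mean of -0.04 and RPN2 of -0.03, and the changes of RPN2 spanned only 0.16.

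The lid cuts ubiquitin chains off substrates through Rpn11. The 8 lid genes followed here had a median difference of -0.07, with 2 means above 0 and 6 below. No member passed the test on the deposited values. The median was -0.142 after median centring and after quantile normalization. RPN3, a scaffold gene of the lid, stood at 11.85, 11.94, 12.17, 12.16 and 12.17 at 35 °C, against 12.28, 12.31, 12.37, 12.23 and 12.31 at room temperature. Every 35 °C array of RPN3 lay below every room temperature array, which was so for 1 of the 33 genes and for 2.33% of all genes. The reverse was so for 0 of the 33 and for 6.35% of all genes. The mean of RPN3 was -0.24 ± 0.15 (SD, n = 5 strains; adjusted p = 0.0718), with a 95% interval of -0.42 to -0.06. RPN3 passed the threshold after median centring (adjusted p = 0.0267) and after quantile normalization (0.0239). It did not pass without the strain block (0.110), with low genes left out (0.0568) or with averaged probe sets. With any 1 strain left out it also missed (adjusted p from 0.0896 to 0.170). RPN11, the deubiquitinase gene, stood at 11.85, 11.84, 12.10, 12.06 and 11.98 at 35 °C, against 12.09, 12.01, 12.15, 11.97 and 12.11 at room temperature. Its levels overlapped between the temperatures, and its mean was -0.10 ± 0.13 (SD, n = 5 strains; adjusted p = 0.335). RPN7, another scaffold gene, had the widest range of changes in the lid. It stood at 12.70, 12.68, 12.72, 12.92 and 12.64 at 35 °C, against 12.82, 12.84, 12.78, 12.66 and 12.82 at room temperature. Only in skp1-11 was the 35 °C array above its room temperature array, and the mean was -0.05 ± 0.18 (SD, n = 5 strains; adjusted p = 0.704). Means of RPN5, RPN6, RPN8, RPN9 and RPN12 lay between -0.10 and 0.09.

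The 33 changes lay mostly above 0 in skp1-11 and mostly below 0 in cdc53-1, cdc34-3 and skp1-25. In skp1-11 the median change of the 33 was 0.18, with 30 of 33 above 0, where all genes had a median of 0.10 and 63.7% above 0. In cdc4-3 it was 0.07 with 21 above 0, where all genes had 0.10 and 63.6%. The other 3 strains lay below 0. The median was -0.10 in cdc34-3 with 5 above 0 (all genes 0.06 and 58.1%) and -0.13 in skp1-25 with 4 above 0 (all genes 0.02 and 52.6%). It was lowest in cdc53-1, at -0.14 with 2 above 0 (all genes -0.002 and 49.7%), and those 2 were RPN12 and RPN4. The skp1-11 strain had the highest of the 5 changes for 30 of the 33 genes, and for 25.7% of all genes. The cdc53-1 strain had the lowest for 19 of 33 genes, and for 29.9% of all genes. Other pathway genes, listed below, also lay mostly above 0 in skp1-11. These were 10 of 12 assembly, 8 of 8 associated and shuttle, 8 of 8 Cdc48 and 5 of 7 RPN4 regulator genes. The skp1-11 medians of these lists were 0.237, 0.169, 0.165 and 0.257. In them skp1-11 had the highest change for 5, 5, 3 and 4 genes. With 1 array per strain and temperature these are descriptions of single pairs of arrays. After median centring the skp1-11 median was 0.08 with 25 of 33 above 0, and after quantile normalization 0.02 with 18 above 0. The cdc4-3 median was -0.06 under both, with 7 of 33 above 0 after median centring and 5 after quantile normalization. In the other 3 strains the medians stayed below 0 under both, with at most 4 of 33 above 0.

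**Figure D2:**
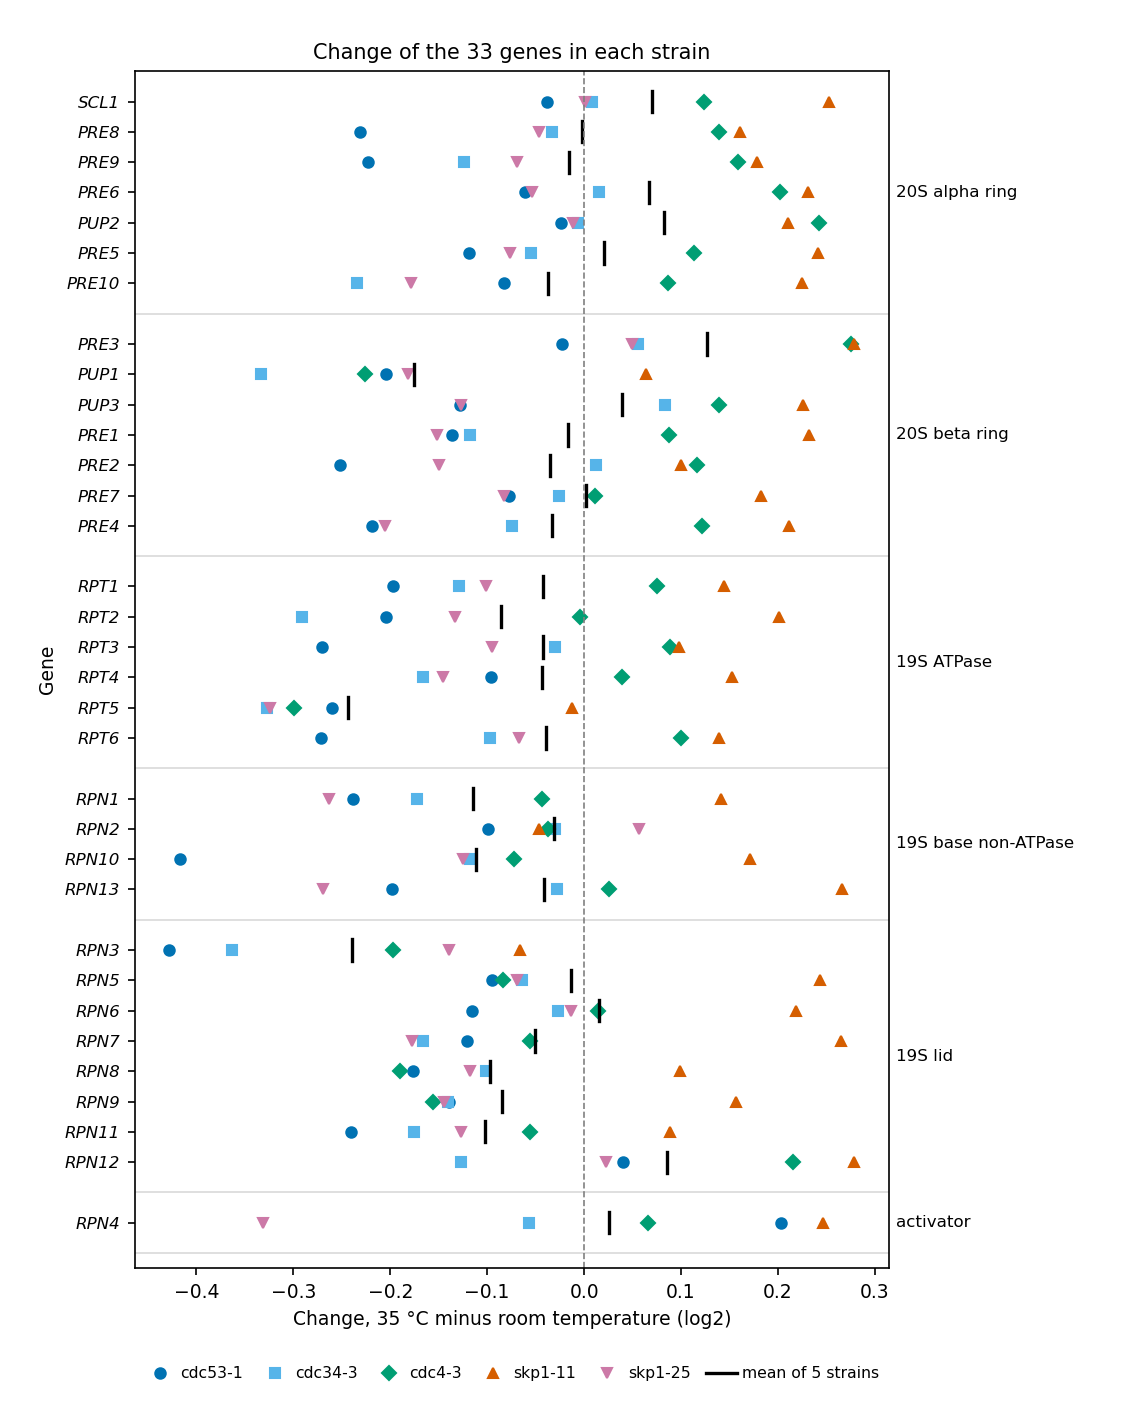
Change of each gene in each strain (log2, 35 °C minus room temperature), with 1 marker per strain and a black bar for the mean of 5 strains; genes run down the page by subcomplex. The skp1-11 markers are the rightmost for 30 of 33 genes, and the cdc53-1 markers the leftmost for 19.

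Each of the 5 subcomplexes had its highest median change in skp1-11. In skp1-11 the median change was 0.23 for the alpha ring, 0.21 for the beta ring, 0.14 for the ATPases, 0.16 for the non-ATPase base and 0.19 for the lid. In cdc53-1 the medians were -0.08, -0.14, -0.23, -0.22 and -0.13. In cdc4-3 all 7 alpha ring genes, 6 of 7 beta ring genes and 4 of 6 ATPase genes had changes above 0, with medians of 0.14, 0.12 and 0.06. Of the base 1 of 4 did and of the lid 2 of 8, with medians of -0.04 and -0.07. In cdc34-3 changes were above 0 for 2 of 7 alpha ring and 3 of 7 beta ring genes, with a median of -0.03 in each ring. There 0 of the 6 ATPase, 4 base and 8 lid genes did, with medians of -0.15, -0.07 and -0.13. After quantile normalization the cdc4-3 medians were -0.02 for the alpha ring, -0.05 for the beta ring, -0.06 for the ATPases, -0.16 for the base and -0.19 for the lid. The skp1-11 medians of the ATPases and the base were then -0.02 and -0.002. A difference between subcomplexes was not tested, because genes of a complex are not replicates. RPN4 RNA did not share the sign of the subunit median in 1 strain, cdc53-1, where RPN4 changed by 0.20 and the 32 subunit genes had a median of -0.16. In skp1-25 the values were -0.33 for RPN4 and -0.12 for the subunit genes, and in skp1-11 0.25 and 0.18. In cdc34-3 they were -0.06 and -0.10, and in cdc4-3 0.07 and 0.06.

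Differences in change between strains were then tested to ask for signatures of single gene products. None of the 33 genes passed in cdc53-1, cdc34-3, cdc4-3, skp1-11 or skp1-25 against the other 4 strains, or in the skp1 alleles against the other 3. limma called 0 genes of the whole table in each of these 6 comparisons, or 0.00%, with 168 to 477 genes at an unadjusted p under 0.05. Among the 33 the unadjusted count was 1 in skp1-11, where 3.98% of all genes had it. It was 0 in the other 5 comparisons, where 8.75% of all genes had it for cdc53-1, 7.19% for cdc34-3, 3.62% for cdc4-3, 4.17% for skp1-25 and 3.08% for the skp1 alleles. The gene was RPN7, whose change of 0.27 in skp1-11 stood 0.40 ± 0.15 (SE) above the mean of the other 4 strains (adjusted p = 0.998). For RPN4 the largest difference was that of skp1-25, -0.45 ± 0.19 (SE; adjusted p = 1.00). Over the 33 genes, the difference was positive for 32 in skp1-11 with a median of 0.25 (all genes 0.063). In cdc53-1 it was negative for 32, with a median of -0.15 (all genes -0.06). The other strains were lopsided too. The difference was negative for 31 in skp1-25 (median -0.086, all genes -0.047) and for 28 in cdc34-3 (-0.077, all genes 0). In cdc4-3 it was positive for 25 (0.103, all genes 0.059). The 2 skp1 alleles lay on opposite sides, with median changes of 0.18 in skp1-11 and -0.13 in skp1-25. Their pooled difference from the other 3 strains was positive for 32 of the 33 genes, with a median of 0.10 (all genes 0.007).

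Standing levels of the strains were compared with temperature as a term, each strain against the mean of the other 4. None of the 33 genes passed, where limma called 5.80% of all genes for cdc53-1, 0.330% for cdc34-3, 3.25% for cdc4-3, 4.66% for skp1-11 and 2.81% for skp1-25. At an unadjusted p under 0.05 there was RPN2 in cdc53-1 (27.0% of all genes), RPN4 in cdc34-3 (12.3%) and in cdc4-3 (20.1%), and no member in skp1-11 (22.2%) or skp1-25 (23.7%). The fitted difference of RPN4 was -0.33 ± 0.12 in cdc34-3 and 0.32 ± 0.12 (SE) in cdc4-3 (adjusted p = 0.354 and 0.214). RPN2, named after its values were seen, had the smallest adjusted p of the 33 genes in any strain, with a difference of -0.19 ± 0.07 (SE) in cdc53-1 (adjusted p = 0.151). This test treats the 2 arrays of a strain as replicates of its level, and holds no spread between cultures known to be independent.

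The strains lay further apart at 35 °C than at room temperature for most of the 33 genes. Over the 33 genes the median SD across strains was 0.14 at 35 °C and 0.06 at room temperature. Over all genes it was 0.23 at 35 °C and 0.16 at room temperature. The SD was larger at 35 °C for 31 of 33 genes, or 93.9%, where it was for 71.1% of all genes and for 71.5% of the 1914 genes at or above the lowest mean level of the 33. RPT2 and PRE7 were the 2 exceptions, named after their values were seen. Of other pathway genes, the SD was larger at 35 °C for 10 of 12 assembly (83.3%), 8 of 8 associated and shuttle and 7 of 8 Cdc48 genes (87.5%). It was larger for 5 of 7 RPN4 regulator genes, or 71.4%, which is near the share of all genes. Without skp1-11 these counts were 9, 7, 6 and 3, where 70.8% of all genes had a larger SD at 35 °C. For RPN12, a lid gene also named after its values were seen, the SD was 0.19 at 35 °C and 0.03 at room temperature, and for SCL1 0.13 and 0.02. The count was 27 of 33 without skp1-11, 28 after median centring and 32 after quantile normalization. The skp1-11 and cdc53-1 arrays stood furthest apart at 35 °C. There the 33 genes stood at a median of 0.23 above the mean of the other strains in skp1-11, with 32 of 33 genes above it, where all genes had a median of 0.03 and 54.5% above. In cdc53-1 they stood at -0.14, with 1 of 33 above, where all genes had -0.07 and 41.2%. At room temperature the same medians were -0.05 in skp1-11 and 0.03 in cdc53-1. The difference in spread was not tested, and each strain had 1 array at each temperature.

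**Figure D3:**
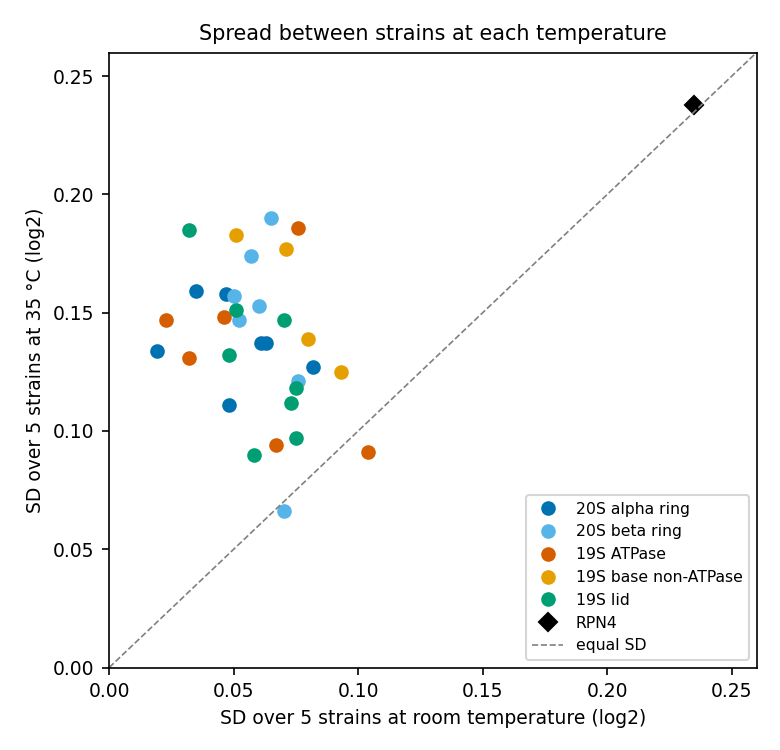
SD of each gene's level over the 5 strains (log2) at 35 °C (vertical axis) against the SD at room temperature (horizontal axis), 1 point per gene, coloured by subcomplex, with a dashed line of equal SD. Points of 31 of 33 genes lie above the line, and RPN4 lies far to the right of the subunit genes.

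**Figure D4:**
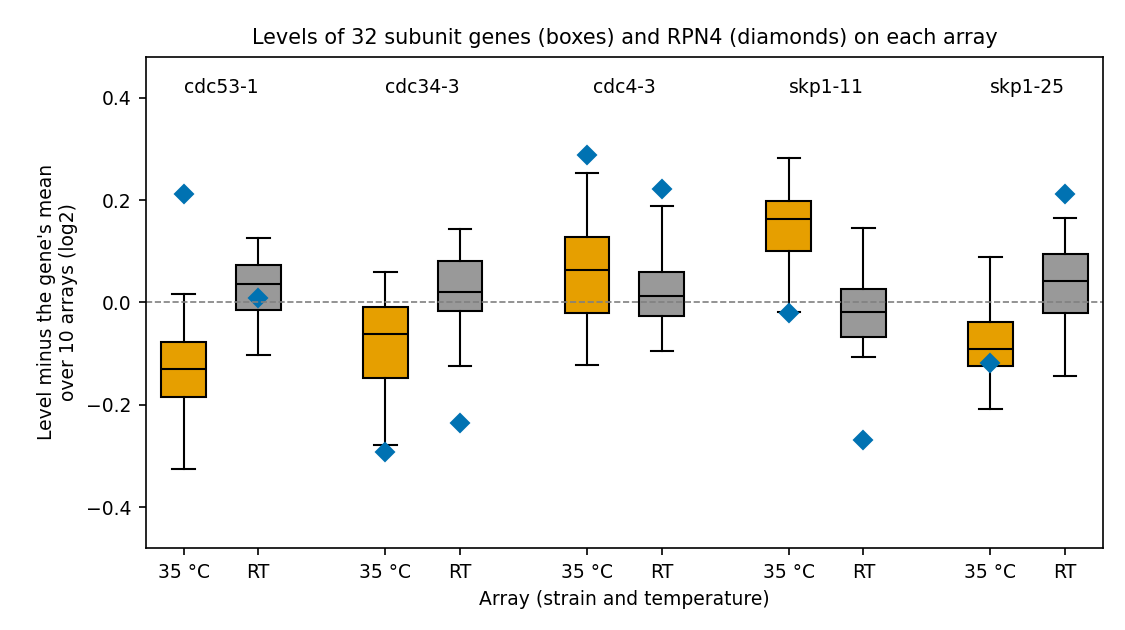
Level of each gene minus its own mean over 10 arrays (log2), by strain and temperature; boxes give the quartiles and whiskers the full range of the 32 subunit genes, and diamonds RPN4. The subunit boxes sit highest on the skp1-11 array and lowest on the cdc53-1 array at 35 °C, while the RPN4 diamond is above its box at 35 °C in cdc53-1 and at the lower whisker in skp1-11.

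Other genes of the pathway were read from 4 lists of 35 genes, which cover assembly factors, associated and shuttle proteins, the Cdc48 complex and regulators of RPN4. Of these, 2 were called higher at 35 °C and 2 lower, where 13.0% and 4.61% of all genes were. Of 12 assembly genes 1 was higher and 1 lower, with a median of 0.11. PBA1, a chaperone gene for assembly of the alpha ring, stood at 11.41, 11.38, 11.55, 11.77 and 11.28 at 35 °C, against 11.11, 11.02, 11.35, 11.24 and 11.08 at room temperature. The levels overlapped between the temperatures, and it rose in 5 of 5 strains, by 0.32 ± 0.14 (SD, n = 5 strains; adjusted p = 0.0299). Its call was lost after median centring (adjusted p = 0.0558) and quantile normalization (0.0539). It was also lost when any 1 strain was left out (adjusted p from 0.0556 to 0.0763). BLM10, which encodes an alternative activator that caps the core in place of the 19S particle, stood at 11.14, 10.59, 10.45, 10.49 and 11.28 at 35 °C, against 11.29, 11.32, 11.16, 11.05 and 11.79 at room temperature. The levels overlapped between the temperatures, and BLM10 fell in 5 of 5 strains, with a mean of -0.53 ± 0.23 (SD, n = 5 strains; adjusted p = 0.0159), or 0.692-fold. The change of BLM10 was -0.15 in cdc53-1 and lay between -0.73 and -0.51 elsewhere, and its call was lost without cdc4-3 (adjusted p = 0.0620) or skp1-11 (0.0554). NAS2, TMA17 and UMP1, assembly factor genes named after their values were seen, had means of 0.32, 0.38 and 0.12 and missed the threshold (adjusted p = 0.0566, 0.0921 and 0.379).

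Of 8 associated and shuttle genes 1 was higher and 0 lower, where 13.0% and 4.61% of all genes were. The median of the 8 was 0.02. STS1, whose product helps to bring proteasomes to the nucleus, stood at 12.38, 12.26, 12.54, 12.31 and 12.13 at 35 °C, against 12.01, 11.92, 12.02, 11.82 and 11.89 at room temperature. Every 35 °C array of STS1 lay above every room temperature array, as for 6.35% of all genes. It rose in 5 of 5 strains by 0.40 ± 0.11 (SD, n = 5 strains; adjusted p = 0.0123). The call held when each strain was left out in turn, with an adjusted p of 0.04995 without cdc4-3. UBP6, a deubiquitinase gene of the base, had a mean of -0.20 ± 0.19 (SD, n = 5 strains; adjusted p = 0.161). The other 6 of this list, among them the shuttle genes RAD23, DSK2 and DDI1, had means from -0.03 to 0.14. None of the 8 Cdc48 genes passed in limma, and 0 had an unadjusted p under 0.05, where 34.2% of all genes had. Their median difference was -0.04. CDC48 itself, the segregase gene, had a mean of 0.09 ± 0.16 (SD, n = 5 strains; adjusted p = 0.427), and its cofactor gene SHP1 of -0.09 ± 0.17 (SD, n = 5 strains; adjusted p = 0.47).

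Among 7 regulators of RPN4, 0 were higher and 1 was lower, where 13.0% and 4.61% of all genes were. The median of the 7 was 0.01. MUB1, whose product works with the ubiquitin ligase Ubr2 to have Rpn4 degraded, stood at 9.85, 9.98, 9.93, 10.10 and 10.08 at 35 °C, against 10.19, 10.12, 10.27, 10.23 and 10.37 at room temperature. Every 35 °C array of MUB1 was below every room temperature array, as for 2.33% of all genes. MUB1 fell in 5 of 5 strains, with a mean of -0.25 ± 0.11 (SD, n = 5 strains; adjusted p = 0.0429). Its call was lost when any 1 strain was left out (adjusted p from 0.0637 to 0.126). PDR1, a transcription factor gene that acts on RPN4, had a mean of 0.17 ± 0.11 (SD, n = 5 strains; adjusted p = 0.13). The other 5, which are HSF1, YAP1, PDR3, UBR2 and RAD6, had means from -0.16 to 0.12, and none passed.

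**Figure D5:**
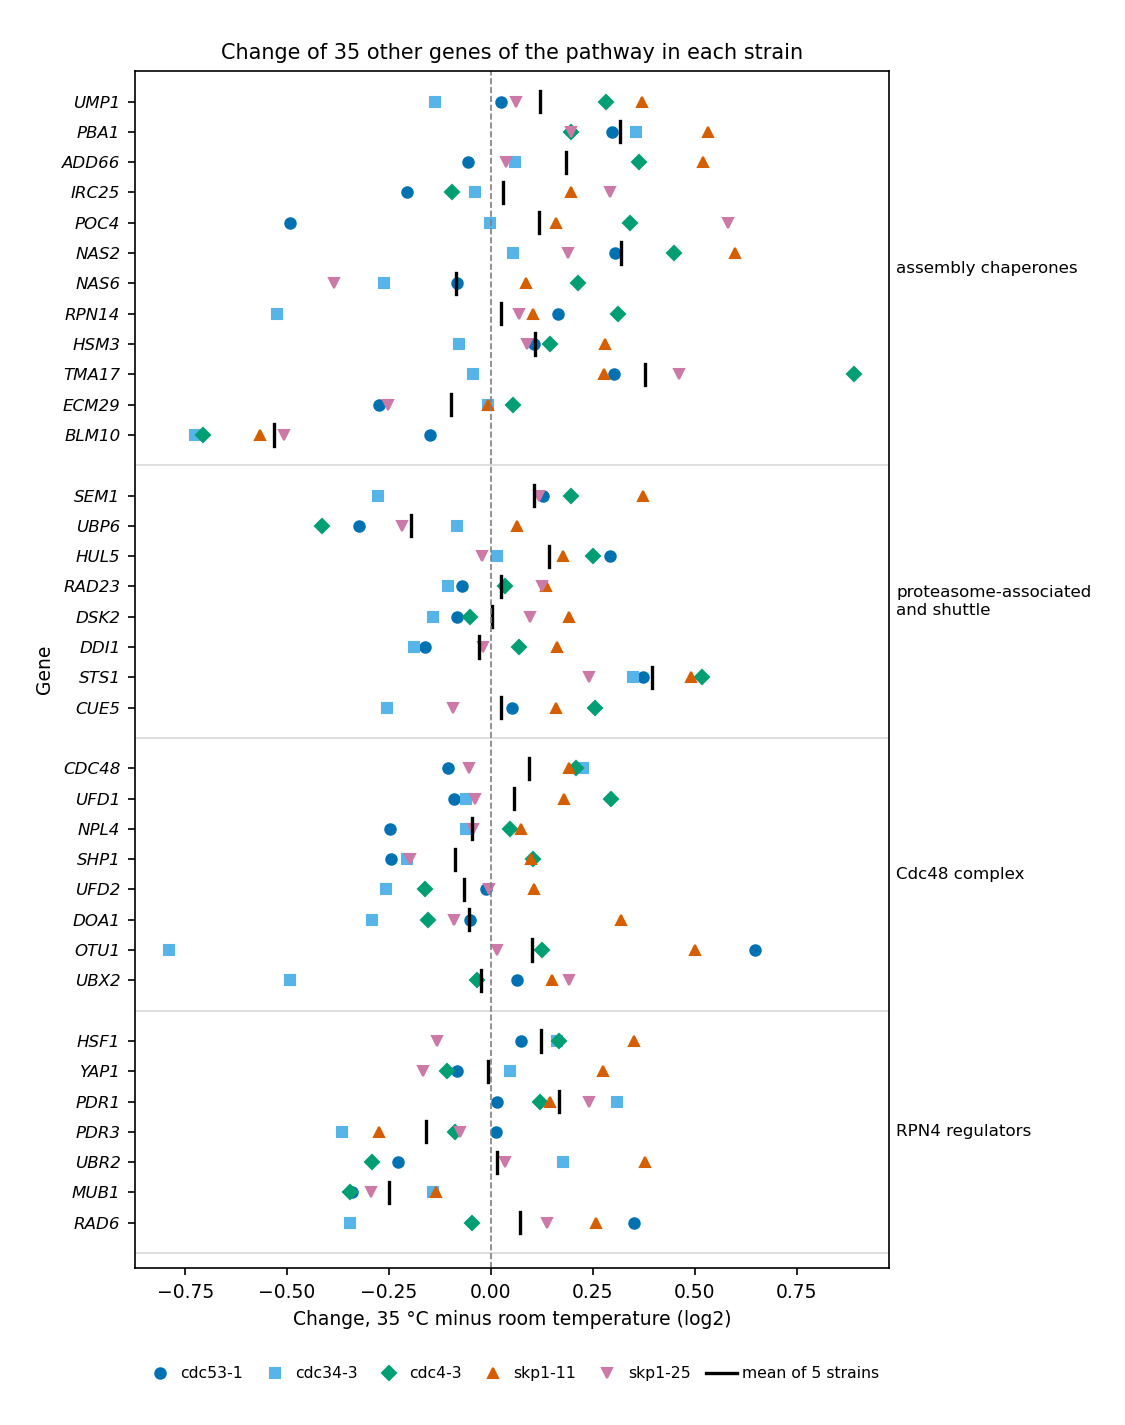
Change of 35 other pathway genes in each strain (log2, 35 °C minus room temperature), with 1 marker per strain and a black bar for the mean of 5 strains, in 4 lists down the page. All 5 markers of PBA1 and STS1 lie above 0 and all 5 of BLM10 and MUB1 below 0.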

How the data were processed

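Total RNA of 10 yeast cultures was labelled with biotin as cRNA and read on Affymetrix arrays, per the labels' protocols. The values deposited by the authors were taken as log2 levels, from their range. How probes were summarised and the arrays normalized is not given in the sources used here. Of 5716 probe sets, 5498 had 1 gene symbol in the platform annotation, 0 had several and 218 were unnamed. Symbols were updated through a RefSeq table of assembly R64, of which only names were used. For 47 genes with more than 1 probe set, none of them among the 33, the brightest was taken. No low values were filtered, so all 33 genes were tested.

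Tests used limma 3.58.1 in R 4.3.3 (lmFit, eBayes), two-sided, with p-values adjusted by Benjamini-Hochberg over the 5449 genes and a threshold of 0.05. The shift was fitted with strain as a block (4 residual degrees of freedom). The allele in the labels pairs the arrays. Deviations from the temperature means correlated at 0.43 to 0.77 between arrays of a strain, and at most at 0.12 between strains. Intervals are the 95% intervals of this fit. Strain contrasts were fitted on the 5 within-strain changes, where a lone strain is assumed to vary like the others, and levels with temperature as a term.

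Arrays were named in full for RPN4 and, in each subcomplex, for the 2 genes with the largest absolute statistic and the one with the widest range of changes between strains. Of the other pathway genes, those that passed and the 2 largest statistics of each list were named. The 33 genes, the lists and these rules were chosen with earlier results of these data known. The fits were tested on simulated data. Alternatives were no strain block, median centring, quantile normalization, leaving out genes under the 25th percentile of mean level, averaging probe sets, and leaving out each strain. The number of arrays limits the precision.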

Additional observations from a re-analysis of the deposited data

Results flagged for a closer look

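Among 72 sets of 5 strain values checked for the named genes and subcomplexes, 5 held a value far from the other 4 by Dixon's limit, which chance gives in about 5% of sets. The skp1-11 strain held 4 of them. Its change was -0.012 in RPT5 (the others lay between -0.33 and -0.26), 0.27 in RPN7 (-0.18 to -0.06) and, as the median of the 19S lid genes, 0.19 (-0.13 to -0.07). The 35 °C level of UBP6 was 12.19 in skp1-11 (11.90 to 11.98 elsewhere). The other was the room temperature level of RPT5 in cdc4-3, 12.33 (12.25 to 12.27).

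Among the 33 proteasome genes, 13, or 39.4%, had 1 strain on one side of 0 and the other 4 strains on the opposite side, where 34.4% of all genes did. In 9 of the 13, or 27.3% of the 33, skp1-11 was the only strain above 0, as it was for 4.07% of all genes. These differences rest on 1 pair of arrays and were not tested beyond the strain contrasts, which called none. Values are given for the genes whose arrays or test are reported in full, which leaves out 5 of the 13 (RPN2, RPN5, RPN8, RPN9 and RPN12). Among the genes given in full, the change was above 0 in skp1-11 and below 0 in the others for PUP1 (0.064), RPT2 (0.20), RPN1 (0.14), RPN10 (0.17), RPN11 (0.089), RPN7 (0.27), and also for UBP6 (0.065), which is not one of the 33. In cdc53-1 it was below 0 and in the others above 0 for SCL1 (-0.038) and PRE3 (-0.023).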

How the results depend on the processing

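The count of proteasome genes called higher stayed at 0 under every alternative run. The count called lower was 0 without the strain block and with averaged probe sets, 2 after median centring, 3 after quantile normalization and 1 with low genes left out, and 0 to 1 with a strain left out. Over all genes, 706 were called higher and 251 lower; without the strain block (a fit without replicate block) these were 282 and 67, and with a strain left out 291 to 527 and 80 to 136. After median centring 503 were lower and after quantile normalization 530, so that 51.0% and 47.9% of calls were higher, against 73.8% as deposited. RPN4 turned to -0.049 after median centring and -0.047 after quantile normalization and ranged from -0.03 to 0.115 with a strain left out. SCL1 turned to -0.005 after median centring and -0.006 after quantile normalization. PRE10 ranged from -0.102 to 0.013 and PRE4 from -0.094 to 0.013 with a strain left out. The median of the 33 genes was -0.11 under both rescalings and ranged from -0.08 to 0.007 with a strain left out, where it was lowest without skp1-11 and highest without cdc53-1. The strain contrasts and strain levels called 0 of the 33 genes under every alternative run. Without the strain block PBA1 (adjusted p = 0.105), BLM10 (0.139) and MUB1 (0.0761) missed the threshold, and STS1 kept its call. The alternatives for the other pathway genes, for the spread between strains and for the medians within strains were chosen after seeing the data.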
